A study of Homo sapiens with 2 samples.

Results

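The aryl hydrocarbon receptor (AHR) pathway and its xenobiotic enzymes were represented by 10 genes, chosen by name: AHR, ARNT, ARNT2, AHRR, TIPARP, CYP1A1, CYP1B1, CYP2S1, ALDH3A1 and ALDH1A3. Every probe set whose single annotated symbol was a listed name was taken, which gave 20 of 54675 probe sets and 10 of 19735 genes. They were compared between HARA-B4, a subline of HARA that metastasises strongly to bone, and HARA, the parental human line of squamous cell lung cancer. Both lines grew in the same serum-supplemented medium, total RNA of each was hybridised to 1 Affymetrix array, and there were no replicates. No receptor ligand or solvent is named in the labels for either line, and the sources used here do not say whether HARA-B4 is a single clone.

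AHR is a cytosolic transcription factor of the bHLH-PAS family that binds dioxins, polycyclic aromatic hydrocarbons of tobacco smoke and metabolites of tryptophan. On binding a ligand it leaves its chaperones, enters the nucleus, pairs with ARNT and binds xenobiotic response elements near genes such as CYP1A1, CYP1B1, AHRR and TIPARP. AHRR and TIPARP act back on the receptor, and the cytochrome P450 and aldehyde dehydrogenase enzymes of the set oxidise xenobiotics, lipid aldehydes and retinal in airway and other epithelia.

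The response element has the core letters GCGTG, and its longer form is TNGCGTG. Both were searched on both strands, with every longer match also counted as a core match, in RefSeq promoter windows (GRCh38.p14) that run from 250 bases before to 50 bases after a transcription start. Windows were matched by symbol for 7 of the 10 genes, 10 windows in all. CYP1B1, ARNT2 and ALDH3A1 were not matched. The windows below are shown because AHRR and CYP2S1 stood higher in HARA-B4, while CYP1A1 and TIPARP, known receptor targets, were within 2-fold. Each is written 5′ to 3′ along the gene, and capitals mark the core letters or their reverse complement.
AHRR upstream start (chr5:321464-321763, plus strand): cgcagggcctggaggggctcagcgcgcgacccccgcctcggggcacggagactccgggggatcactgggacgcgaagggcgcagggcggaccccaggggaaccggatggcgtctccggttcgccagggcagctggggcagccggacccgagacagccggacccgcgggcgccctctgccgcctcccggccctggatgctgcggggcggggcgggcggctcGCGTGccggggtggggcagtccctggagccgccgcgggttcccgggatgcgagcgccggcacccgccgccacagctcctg
AHRR downstream start (chr5:322360-322659, plus strand): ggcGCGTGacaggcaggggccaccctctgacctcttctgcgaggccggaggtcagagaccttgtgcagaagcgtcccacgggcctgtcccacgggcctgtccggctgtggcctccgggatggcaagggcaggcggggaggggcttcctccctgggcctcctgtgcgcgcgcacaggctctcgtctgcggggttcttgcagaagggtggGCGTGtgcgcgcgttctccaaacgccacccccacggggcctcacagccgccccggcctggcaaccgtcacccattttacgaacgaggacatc
CYP1A1 (chr15:74725479-74725778, minus strand): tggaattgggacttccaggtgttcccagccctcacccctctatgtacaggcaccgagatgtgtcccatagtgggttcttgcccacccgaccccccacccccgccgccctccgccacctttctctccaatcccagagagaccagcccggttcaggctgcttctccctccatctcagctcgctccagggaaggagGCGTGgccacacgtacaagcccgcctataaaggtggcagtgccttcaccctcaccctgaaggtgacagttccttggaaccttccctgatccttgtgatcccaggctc
TIPARP most upstream start (chr3:156674340-156674639, plus strand): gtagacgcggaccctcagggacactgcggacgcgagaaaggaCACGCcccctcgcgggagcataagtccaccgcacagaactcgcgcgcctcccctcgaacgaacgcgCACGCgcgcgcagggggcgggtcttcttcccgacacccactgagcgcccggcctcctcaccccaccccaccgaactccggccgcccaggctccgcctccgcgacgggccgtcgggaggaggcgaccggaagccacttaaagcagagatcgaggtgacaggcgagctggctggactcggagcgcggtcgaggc
CYP2S1 (chr19:41192969-41193268, plus strand): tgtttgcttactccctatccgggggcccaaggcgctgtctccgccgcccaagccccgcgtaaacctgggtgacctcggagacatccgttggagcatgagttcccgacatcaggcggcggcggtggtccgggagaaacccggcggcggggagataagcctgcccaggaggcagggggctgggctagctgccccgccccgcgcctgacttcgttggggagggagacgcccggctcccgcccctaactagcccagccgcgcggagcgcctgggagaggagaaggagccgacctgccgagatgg

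The core was found in 6 of the 10 windows, and in 36.5% of all 35116 windows in the table. The longer form was in 1 of the 10, the upstream AHRR window, where its core is the part in capitals. It was in 5.51% of all windows. These shares count every window, also those of genes not above background. Among genes with a window and above background on at least 1 array, 5506 had the core and 3922 did not. No excess of the core is therefore read from the 6 of 10. CYP2S1 had no core match in its window. CYP1A1 had 1 match. TIPARP had 2 in the window shown and 0 in each of its other windows. Matches were therefore present in windows of genes within 2-fold and, among genes beyond 2-fold, of AHRR alone (CYP1B1 and ALDH3A1 had no window). A match is a description of letters and not of a bound site.

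The values are linear probe set intensities, called signals here, and differences are log2 signal in HARA-B4 minus log2 signal in HARA. A signal above 27.1 was taken as above background, the 95th percentile of 165 probe sets of smell, taste and pheromone receptor genes over both arrays. Where a gene had several probe sets, that with the highest mean log2 signal stood for it. A gene was counted at a difference of at least 2-fold, with a signal below background raised to 27.1. With 1 array per line no test was possible, overlap between the lines cannot be judged, and no p-value is given. Probe sets of the same gene gave log2 differences with an SD of 0.30 within genes, over 4830 genes that had more than 1 of them above background in both lines. It is a spread between different probe sets on the same RNA, not between repeated measurements, and does not measure variation between cultures.

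The arrays were alike in overall level. The median signal was 16.2 in HARA-B4 and 17.3 in HARA, and 40.8% of probe sets in HARA-B4 and 42.0% in HARA were above background. Of 6 squamous markers measured, 6 were above background on both arrays, among them KRT5 with a signal of 4504 in HARA-B4 and 4723 in HARA. TP63 and KRT6A were not analysed here.

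Of the 10 genes, CYP2S1, AHRR and CYP1B1 (3) stood higher in HARA-B4 by 2-fold or more, ALDH3A1 (1) stood lower by as much, and 6 were within 2-fold. The corresponding shares among all 11489 genes above background on at least 1 array were 3.62% higher and 4.20% lower, 7.82% in all. Among the dimmer 5745 of these genes, to which AHRR and CYP2S1 belong, 4.75% were higher and 5.55% lower, and among the brighter 5744, with CYP1B1 and ALDH3A1, 2.49% were higher and 2.86% lower. The 10 genes were chosen with earlier results known, so nothing is read from their larger share. The median log2 difference was 0.26 over the 10 genes and 0.01 over all tested genes. AHR itself, its partner ARNT, and the receptor targets CYP1A1 and TIPARP were within 2-fold. Receptor activity was not tested.

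**Figure D1:**
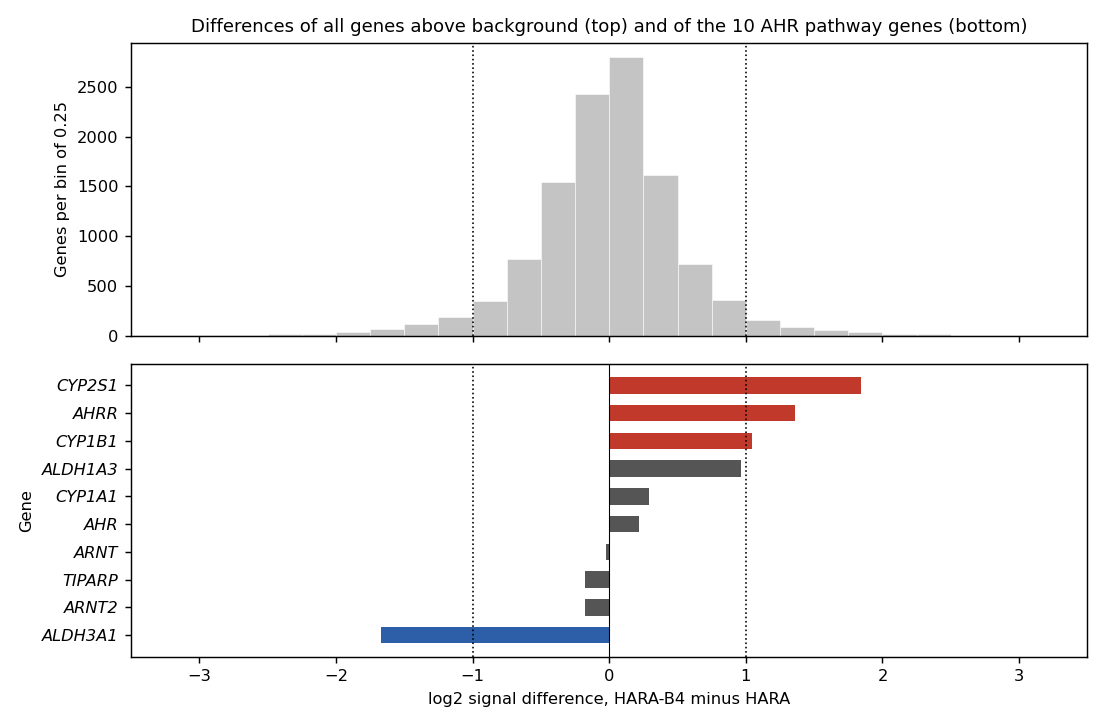
The top panel counts all genes above background by log2 signal difference (HARA-B4 minus HARA, bins of 0.25), with 20 genes outside the plotted range. The bottom panel gives the difference of each of the 10 genes as a bar, red for higher and blue for lower by at least 2-fold. Dotted lines mark 2-fold, and ALDH3A1 (-1.67) and CYP2S1 (1.84) lie farthest out of the 10.

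The receptor was measured by a single probe set, 202820_at. Its AHR signal was 138 in HARA-B4 and 118 in HARA, a log2 difference of 0.22. That is smaller than the within-gene spread of 0.30, which comes from genes with several probe sets and does not measure variation between cultures.

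ARNT, the nuclear partner that AHR shares with the hypoxia-inducible factors, had 7 probe sets, of which 5 were above background on both arrays. The probe set that stood for it, 218221_at, had a signal of 112 in HARA-B4 and 114 in HARA, a log2 difference of -0.02 whose sign turned under quantile normalization and under removal of a trend with level. The 5 log2 differences ranged from -0.42 to 0.33, with a mean of -0.10 ± 0.28 (SD over 5 probe sets on the same arrays). The other probe sets, 233714_at and 233724_at, were below background on both arrays, so no fold is given for them. ARNT thus had no consistent direction across its probe sets.

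ARNT2, the paralogue of ARNT known mainly from neural tissue, was near background. Its probe set 202986_at had a signal of 17.5 in HARA-B4, below background, and 30.7 in HARA, just above it. HARA-B4 was therefore at least 1.13-fold lower, a bound well under 2-fold.

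AHRR, the AHR repressor, is induced by the receptor and competes with it for ARNT. Its probe set 229354_at had a signal of 99.6 in HARA-B4 and 38.8 in HARA. The log2 difference was 1.36 (2.57-fold), and 212 of 11489 genes had a larger one. The HARA signal was not far above background, and a background level raised by 1 on the log2 scale left AHRR uncounted, at a lower bound of 0.88.

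Genes next to AHRR on chromosome 5 stood higher too. For each of the 10 genes, up to 10 genes above background on both arrays were taken on each side in RefSeq gene order (GRCh38.p14). Of the 13 such neighbours of AHRR, 9 passed 2-fold upward and 0 downward. Their median log2 difference was 1.31, so AHRR stood 0.05 from its neighbours. PDCD6, a calcium-binding protein gene and the nearest of them on 1 side, had 1.31, EXOC3 of the exocyst on the other side 1.60, and SDHA of respiratory complex II 1.27. The exceptions within 2-fold were CCDC127 (0.58), SLC9A3-AS1 (0.29), ZDHHC11 (-0.01) and SLC12A7 (0.87). The part of this shared difference in the AHRR value was not tested.

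TIPARP encodes a mono-ADP-ribosyltransferase that is induced by AHR and modifies the receptor in a negative feedback loop. Its probe set 212665_at had a signal of 1024 in HARA-B4 and 1158 in HARA, a log2 difference of -0.18. Its 20 neighbours on chromosome 3 had a median of -0.35, and 4 of them had a difference above 0. TIPARP and AHRR, both feedback genes of the receptor, thus had differences of opposite sign, that of TIPARP being within the spread between probe sets of a gene.

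**Figure D2:**
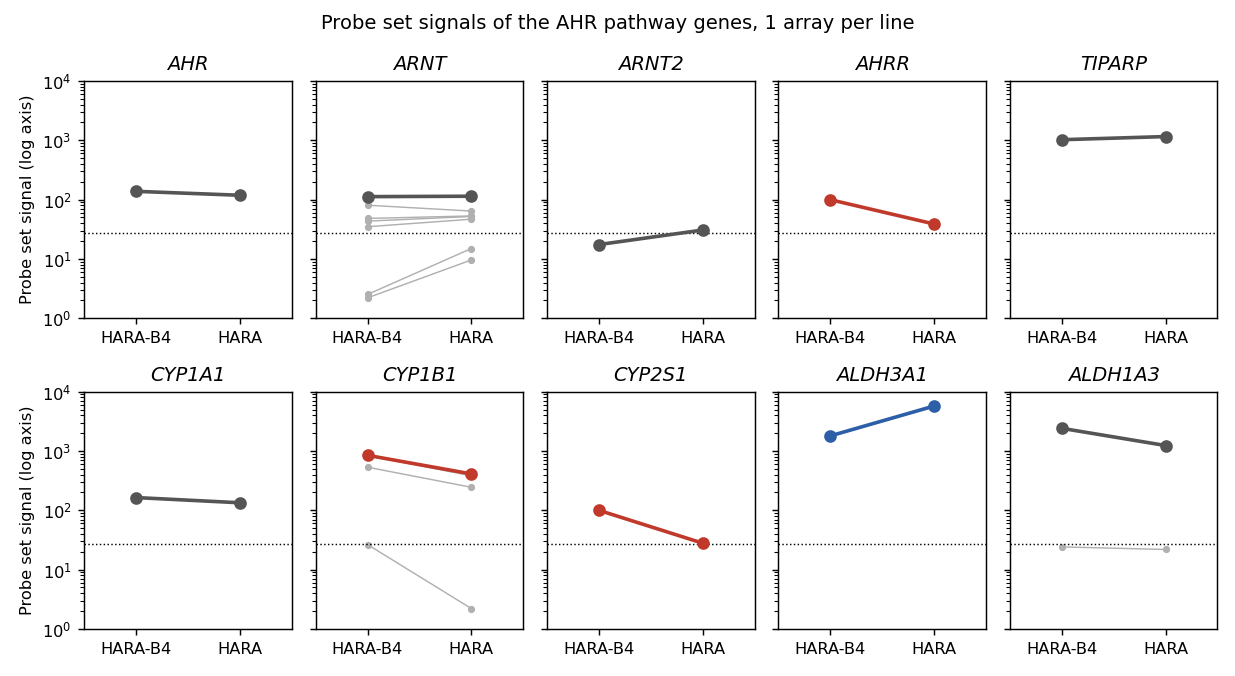
Probe set signals on a log axis are shown for each gene in HARA-B4 (left point) and HARA (right point), with lines joining the values of a probe set. Thick lines are the probe sets that stand for the gene (red higher, blue lower in HARA-B4 by at least 2-fold), thin grey lines are its other probe sets, and the dotted line is the background level of 27.1. CYP2S1 in HARA (27.9) and ARNT2 in HARA (30.7) lie close to that line.

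CYP1A1, the P450 that hydroxylates polycyclic aromatic hydrocarbons and the most used readout of AHR activity, had a signal of 164 in HARA-B4 and 134 in HARA at 205749_at. The log2 difference was 0.29, within the spread between probe sets of a gene. Its 20 neighbours on chromosome 15 had a median of 0.05.

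CYP1B1, an extrahepatic P450 that also acts on oestradiol, was measured by 4 probe sets, all of the kind ending in _s_at, which can match several transcripts. Its highest, 202437_s_at, had a signal of 847 in HARA-B4 and 411 in HARA, a log2 difference of 1.04 (2.06-fold). The second, 202436_s_at, had 841 in HARA-B4 and 382 in HARA (1.14), and 202435_s_at had 534 in HARA-B4 and 245 in HARA (1.13). The 3 probe sets above background on both arrays therefore all passed 2-fold, with a mean log2 difference of 1.10 ± 0.05 (SD over 3 probe sets on the same arrays). The last, 202434_s_at, was below background on both arrays, at 26.4 in HARA-B4 and 2.21 in HARA, and no fold is given for it. The median of its 20 neighbours on chromosome 2 was 0.08, and 1 of them, CDC42EP3 (1.25), was at 2-fold.

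CYP2S1, a P450 of epithelial surfaces such as airway and skin that dioxin induces, had the largest difference of the 10 on the values as deposited. The signal of 223385_at was 99.96 in HARA-B4 and 27.9 in HARA, a log2 difference of 1.84 (3.58-fold), and 97 of 11489 genes had a larger one. The HARA value lay barely above background, so the size of the difference is uncertain. It was 1.40 with log2(signal + 16), where ALDH3A1 (-1.66) differed more, and under a background level raised by 1 on the log2 scale it became a lower bound of 0.88, also smaller than the difference of ALDH3A1 (-1.67), and was not counted. Its 20 neighbours on chromosome 19 had a median of -0.03, with 0 higher and 2 lower by 2-fold, PLD3 (-1.36) and the next gene on 1 side, the receptor kinase gene AXL (-1.14). CYP2S1 therefore differed in the opposite direction to AXL beside it.

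ALDH3A1 oxidises aromatic and medium-chain aldehydes, is abundant in the cornea and is raised in smokers' airways. The signal of 205623_at was 1803 in HARA-B4 and 5743 in HARA, both far above background. The log2 difference was -1.67, so HARA-B4 was 3.19-fold lower, and 127 of 11489 genes had a lower value. Under the 8 alternatives run for it the difference stayed between -1.72 and -1.66. ALDH3A1 had only this 1 probe set, so the background shifts and probe set choices among them could not change its value. Its 20 neighbours on chromosome 17 had a median of 0.15, and 1 was at least 2-fold lower, the drug exporter gene SLC47A1 (-1.38).

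ALDH1A3, which makes retinoic acid from retinal, lay just short of 2-fold. The signal of 203180_at was 2414 in HARA-B4 and 1239 in HARA, a log2 difference of 0.96 (1.95-fold). A second probe set, 1558649_at, was below background on both arrays, at 24.1 in HARA-B4 and 21.9 in HARA. Its 16 neighbours on chromosome 15 had a median of 0.41, and 13 were above 0. Of these, 2 were at 2-fold, LRRK1, the next gene on 1 side (1.41), and SYNM (1.09). The aldehyde dehydrogenases of the set thus differed in opposite directions between the lines.

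**Figure D3:**
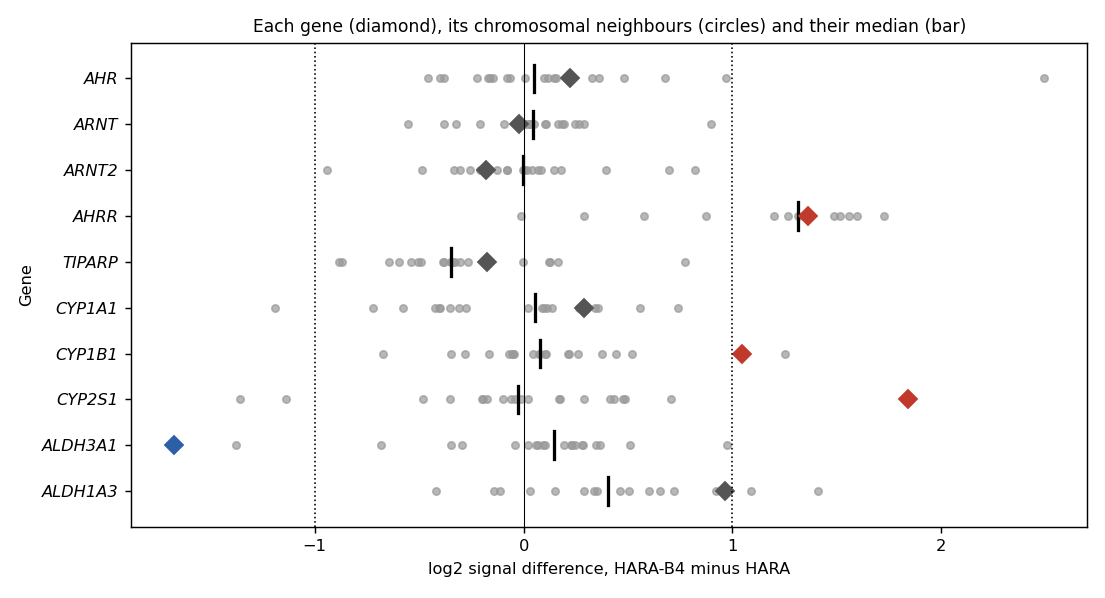
Log2 signal differences (HARA-B4 minus HARA) are shown for each of the 10 genes as a diamond, for its chromosomal neighbours above background on both arrays as circles, and for the median of the neighbours as a black bar. Dotted lines mark 2-fold. AHRR lies within the range of its neighbours (median 1.31), while CYP2S1 and ALDH3A1 lie outside that of theirs.

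Other genes of the pathway were taken from lists chosen by knowledge of their roles, with earlier results of these data also known. Their counts at 2-fold stand beside 3.62% higher and 4.20% lower among all tested genes. The AHR chaperone and degradation genes hardly differed: 0 of 7 reached 2-fold in either direction, and the median log2 difference was -0.08. HSP90AA1 had a signal of 9146 in HARA-B4 and 9662 in HARA, and HSP90AB1, which with it encodes the HSP90 that holds the receptor in the cytosol, 6357 in HARA-B4 and 6244 in HARA. Of 10 other bHLH-PAS genes above background, 1 was higher by 2-fold and 0 lower (median log2 difference -0.23). EPAS1, the hypoxia-inducible factor HIF-2alpha that also pairs with ARNT, had a signal of 147 in HARA-B4 and 60.9 in HARA (log2 difference 1.27), whereas HIF1A had -0.15.

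Of 14 further genes known as AHR targets, 1 passed 2-fold upward and 2 downward, beside 3.62% and 4.20% of all tested genes, and the median log2 difference was -0.34. The growth factor gene EREG was above background in HARA only, at a signal of 3.66 in HARA-B4 and 213 in HARA, and at least 7.85-fold lower in HARA-B4. PTGS2, the inducible cyclooxygenase, had 156 in HARA-B4 and 453 in HARA (-1.54). Involucrin (IVL), a cornified envelope protein, was at least 2.34-fold higher, at 63.4 in HARA-B4 and 20.7 in HARA. NQO1, a quinone reductase induced through both AHR and NRF2, had 0.22, and CYP1A2, the neighbour and relative of CYP1A1, had -0.40. The CYP1A2 value came from a probe set of the kind ending in _x_at, the only 1 of its 2 above background on both arrays. Whether that probe set measured CYP1A2 alone was not tested. The genes of this list also respond to other pathways, and those named had differences of both signs.

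Among other P450 genes and their partners, 14 were above background, and 1 passed 2-fold upward and 1 downward (median log2 difference -0.02). The shares of all tested genes were 3.62% and 4.20%. CYP2U1 had a signal of 38.8 in HARA-B4 and 95.7 in HARA (-1.30; -0.72 by a second probe set). CYP3A4, the main drug-oxidising P450 of liver, had 59.4 in HARA-B4 and 29.0 in HARA (1.03), the HARA value being close to background. The CYP3A4 value came from a probe set of the kind ending in _x_at, the only 1 of its 5 above background on both arrays. Whether that probe set measured CYP3A4 alone was not tested. POR, the reductase that supplies microsomal P450s with electrons, had 0.16. Other aldehyde dehydrogenases did not include any gene at 2-fold, with 0 of 12 in either direction and a median of 0.03. ALDH3A2, the microsomal relative of ALDH3A1, had 5042 in HARA-B4 and 4832 in HARA, so the large difference of ALDH3A1 was not seen in that relative. ALDH9A1 had -0.02.

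The kynurenine route makes ligands of AHR from tryptophan. Of its 10 genes above background, 0 passed 2-fold upward and 2 downward, beside 3.62% and 4.20% of all tested genes. The median log2 difference of the 10 was 0.04. KYNU, which cleaves kynurenine and 3-hydroxykynurenine, had a signal of 90.6 in HARA-B4 and 554 in HARA, a log2 difference of -2.61 (6.11-fold lower), and its 3 probe sets above background ranged from -2.61 to -1.13. AADAT, an aminotransferase that converts kynurenine to kynurenic acid, had 48.3 in HARA-B4 and 100.3 in HARA (-1.05). IDO1, which opens the tryptophan ring, was above background in HARA-B4 only, at 44.5 in HARA-B4 and 18.7 in HARA, a bound under 2-fold, and TDO2 was below background on both arrays. SLC7A5, a carrier of tryptophan and kynurenine, differed by 0.03.

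**Figure D4:**
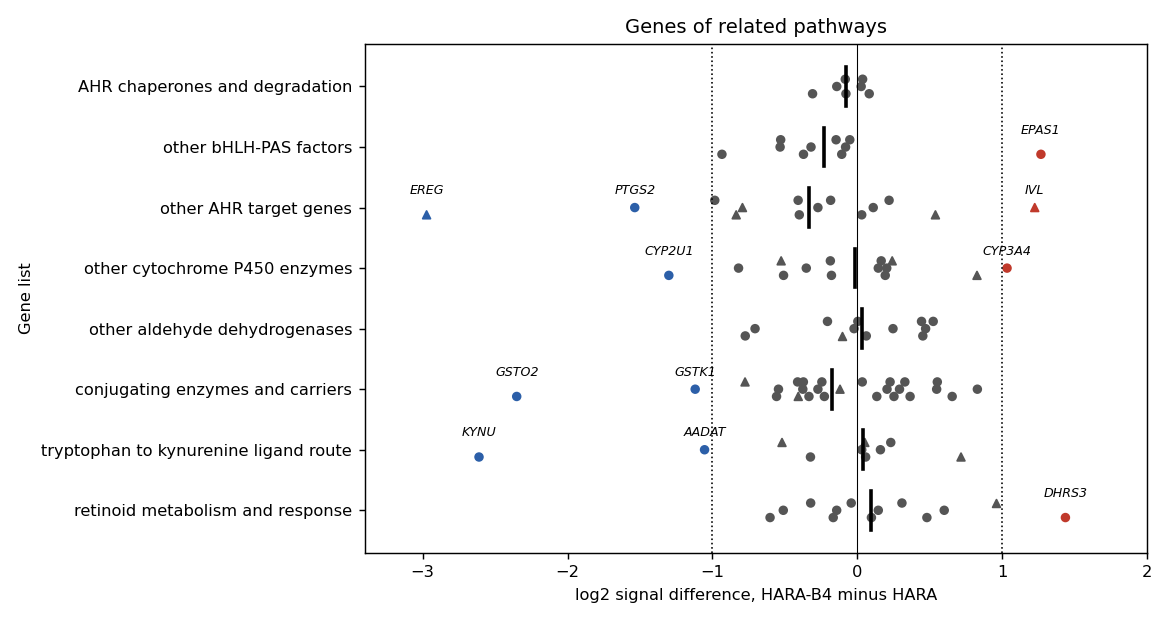
Each point is a gene of a pathway list above background on at least 1 array, placed by its log2 signal difference (HARA-B4 minus HARA). Circles are above background on both arrays, triangles on 1 array only (bounds), black bars are list medians, and genes at 2-fold (dotted lines) are named and coloured red for higher or blue for lower. EREG and KYNU lie farthest to the left.

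Most markers of other cell types were below background. Of 5 hepatocyte markers 4 were below background on both arrays, including albumin (ALB), and TTR was just above it in HARA-B4 only, at 27.8 in HARA-B4 and 4.03 in HARA. Of 8 alveolar and glandular lung markers 3 exceeded background, of which 0 passed 2-fold, and the list had summed signals of 162 in HARA-B4 and 172 in HARA. The club cell marker SCGB1A1 was below background on both arrays. Fibroblast markers had summed signals of 224 in HARA-B4 and 105 in HARA, with FAP at least 5.70-fold higher and THY1 at least 2.35-fold lower in HARA-B4. COL1A2, COL3A1, DCN, LUM and PDGFRB of that list were below background on both arrays. Endothelial markers (1 of 5 above background) and blood markers (1 of 4) did not reach 2-fold. Among squamous markers PKP1 was the 1 of 6 at 2-fold (log2 difference 1.82). The median of that list was 0.80 and its summed signal 18262 in HARA-B4 and 13737 in HARA, and its part in the results for the 10 genes was not tested.

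The calls on the 10 genes were then set against other processing choices. CYP1B1 and ALDH3A1 were counted at 2-fold with the higher background, and ALDH3A1 and CYP2S1 at 3-fold. CYP1B1 had no probe set left once those of the _x_at and _s_at kinds were removed. When all probe sets were averaged, dim ones included, CYP1B1 had 1.72 in place of 1.04 and ALDH1A3 0.55. ARNT had -0.52 as a bound, because its averaged level in HARA-B4 was below background.

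**Figure D5:**
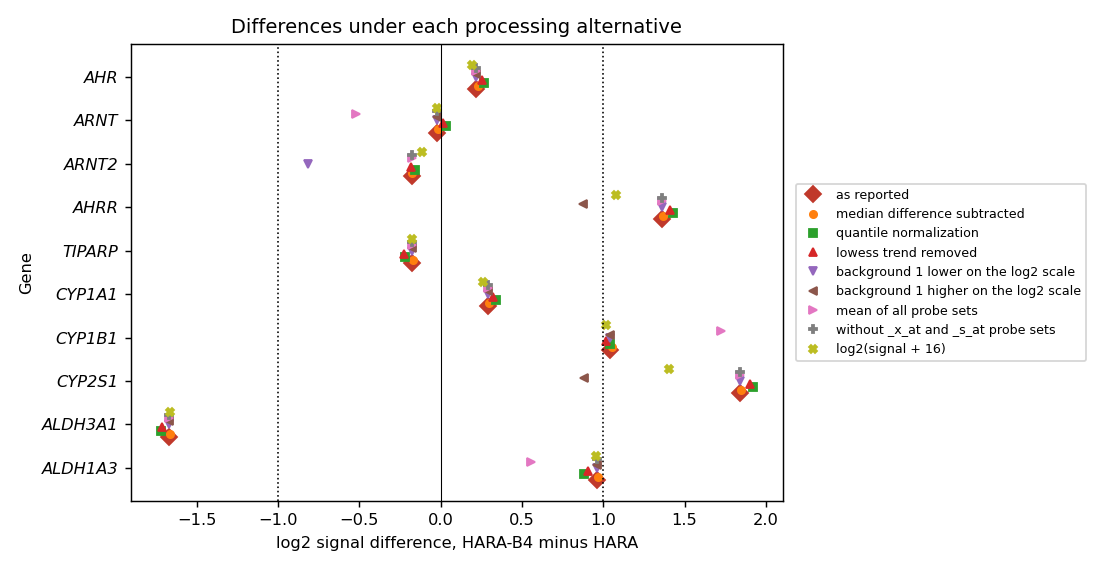
Log2 signal differences (HARA-B4 minus HARA) of the 10 genes are shown as reported (red diamonds) and under 8 processing alternatives (other symbols). Dotted lines mark 2-fold. ALDH3A1 stays between -1.72 and -1.66, and CYP2S1 and AHRR fall to 0.88 when the background level is higher by 1 on the log2 scale.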

How the data were processed

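The table as deposited holds linear intensities (signals) of probe sets, 1 column for each of 2 arrays, made with Affymetrix Expression Console per the submitters' processing notes. The sources used here give no version, summary algorithm, background correction or scaling. Values were taken to the log2 scale with no further scaling. Groups came from the cell line labels, with 1 array each, so the number of arrays limits the precision and there was no test.

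Of 54675 probe sets, 41097 had 1 symbol in the platform annotation, 1801 several and 11777 none, and 41043 could be paired with the RefSeq table (GRCh38.p14) through the Entrez ID. The sources used here give no build for the array, so no gene coordinates are printed beyond the promoter windows of that table. All 10 genes are described with every probe set. From each of 8 pathway lists the text names the up to 4 genes that differed most among those at 2-fold, or the 2 with the highest signals where none reached it. NQO1, CYP1A2, HIF1A, POR, IDO1, TDO2, SLC7A5, the neighbours and the single cell type markers were named after their values were seen. The members, lists and rules were chosen with earlier results of these data known. The alternatives were 3 scalings, background levels 1 lower and 1 higher on the log2 scale, other probe set choices, log2(signal + 16), folds of 1.5 and 3, and agreement of all probe sets. The counting was tested on simulated data, with changes well beyond 2-fold in genes far above background. That test did not cover changes in genes near background or near the 2-fold cutoff. Python 3.11.15, pandas 2.3.3 and statsmodels 0.14.6 were used.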

Additional observations from a re-analysis of the deposited data

How the results depend on the processing

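With 1 array per line, no alternative says anything of variation between cultures. Under 11 alternatives the count of pathway genes at least 2-fold lower stayed at 1 (ALDH3A1). With 1 probe set far above background, ALDH3A1 could not change under the background shifts or the probe set choices. The count of 3 higher became 1 under a background level higher by 1 on the log2 scale (CYP1B1) and 1 at 3-fold (CYP2S1), and was 2 to 4 under the other alternatives. The lost calls under the raised background follow from HARA signals of AHRR and CYP2S1 that lie below it. Over all genes, 416 were higher and 483 lower. With the background lowered by 1 the counts were 625 higher and 722 lower, at 1.5-fold the counts were 1175 higher and 1269 lower, and at 3-fold 141 higher and 155 lower, as a changed threshold entails. Of 78 differences of single pathway genes under the alternatives, 7 moved by at least the within-gene SD of 0.30, and 0 of the differences at 2-fold turned sign. Signal near background limits AHRR, CYP2S1 and ARNT2 in HARA. No paired analysis was possible because each line had 1 array.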

Other observations

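Enzymes that conjugate xenobiotics, and the carriers that export them, included 26 genes above background, of which 0 passed 2-fold upward in HARA-B4 and 2 downward. Among all tested genes 3.62% were higher and 4.20% lower by 2-fold. Over the 26 genes the median log2 difference was -0.17, beside 0.01 over all tested genes. GSTO2, an omega-class glutathione transferase, had a signal of 76.3 in HARA-B4 and 389 in HARA (-2.35), and GSTK1, a kappa-class glutathione transferase, 263 in HARA-B4 and 570 in HARA (-1.12). GSTO1, the relative and genomic neighbour of GSTO2, had 2487 in HARA-B4 and 2159 in HARA (0.20). The exporter gene ABCC1 had 993 in HARA-B4 and 559 in HARA (0.83, or 1.77-fold, and 0.65 by a second probe set), within 2-fold. GSTO1 and ABCC1 were named after their values were seen.

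Retinoid genes, which act beside ALDH1A3, included 13 above background, of which 1 passed 2-fold upward and 0 downward (median log2 difference 0.10). The corresponding shares of all tested genes were 3.62% and 4.20%. DHRS3, which reduces retinal back to retinol and so works against ALDH1A3, had a signal of 143 in HARA-B4 and 52.7 in HARA (1.44). CYP26A1, which degrades retinoic acid and is induced by it, had 1723 in HARA-B4 and 1559 in HARA (0.14). CYP26A1 was named after its values were seen.

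Over all genes with a promoter window in the table and a level above background on at least 1 array, 897 had the longer response element letters TNGCGTG in a window and 8531 did not. The median log2 difference was 0.02 in the genes with the letters and 0.01 in those without. Of the genes with the letters 3.90% were at least 2-fold higher and 4.01% lower, against 3.53% and 4.20% of those without. For the core GCGTG, 3.41% of the 5506 genes with it were higher and 4.21% lower. Of the 3922 genes without the core, 3.77% were higher and 4.13% lower. Genes with the letters were thus more often higher for the longer form and less often higher for the core. No test was run on these shares.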
